A study of Mus musculus with 1 sample.

Results

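The AP-1 and EGR immediate early factors were taken as the 10 table rows whose gene was Fos, Fosb, Fosl1, Fosl2, Jun, Junb, Jund, Atf3, Egr1 or Egr2. All 10 were found, as 1 row each, among 23386 genes. RNA sequencing covered 1 library, from fibroblasts of normal pancreas expanded in culture. The donor mouse was of mixed C57BL/6 and BALB/c background, and its genotype is written tf1acre-;KrasWT;Tgfrb2flox/flox, so that floxed alleles were carried without Cre. The labels give no age, treatment, passage or time since the last change of medium. The series set such cells against cancer-associated fibroblasts, of which no library was analysed here, so levels of 1 library are described and no difference between conditions was tested. The value column carries a CAF code that disagrees with the label, and the sample is therefore called the library labelled normal fibroblast. All intervals are 95% intervals for counting error and hold no variation between cultures.

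AP-1 is a dimer of leucine zipper proteins that binds DNA through a basic region beside the zipper. Jun proteins pair with each other or with Fos proteins, whereas Fos proteins need a Jun partner. Egr1 and Egr2 are zinc finger factors that bind GC-rich sites. Most of these genes are immediate early genes: serum, growth factors or stress induce them within minutes, through MAP kinases acting on SRF and its partners, and their RNAs are short-lived. In fibroblasts they are best known from the response of resting cultures to serum and from the induction of matrix proteases.

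The 8 leucine zipper genes were compared in the DNA that encodes the basic region. A run of 45 bases from this region is shown, starting at a motif that all 8 genes encode. It sets out how alike the paralogs are, and so how far short reads could be shared among them. The bases are GRCm38 coding sequence on the gene's own strand, read from GENCODE M21 transcripts. Capitals mark bases that differ from Fos, for the Fos family and Atf3, or from Jun, for the Jun family.
Fos: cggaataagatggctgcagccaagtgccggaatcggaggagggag
Fosb: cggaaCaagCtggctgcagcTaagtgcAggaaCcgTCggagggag
Fosl1: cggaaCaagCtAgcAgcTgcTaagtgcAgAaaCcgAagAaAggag
Fosl2: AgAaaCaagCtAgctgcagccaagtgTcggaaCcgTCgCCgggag
Atf3: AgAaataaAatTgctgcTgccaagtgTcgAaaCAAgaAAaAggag
Jun: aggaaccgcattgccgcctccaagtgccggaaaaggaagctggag
Junb: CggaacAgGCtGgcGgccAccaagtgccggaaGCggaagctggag
Jund: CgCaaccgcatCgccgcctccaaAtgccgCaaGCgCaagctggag
Fosb differed from Fos at 7 of the 45 bases, Fosl2 at 11, Fosl1 at 12 and Atf3 at 13. Jund differed from Jun at 8 and Junb at 9. Even so, the longest identical run between any members' transcripts was 20 bases, between Jun and Jund. No stretch of 35 bases in a leucine zipper member's transcript occurred on the same strand in a transcript of another gene, and in Egr2 0.341% of stretches did. The labels do not give the read length.

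The members together held 50249 of 52494688 reads, or 0.0957% (exact Clopper-Pearson interval 0.0949% to 0.0966%). All 10 had at least 10 reads, a level that 67.8% of protein-coding genes reached. Levels of different genes are compared per length, as reads per 1000 bases of exonic length (the union of annotated exons) per 1000000 reads (RPKM). The median of the members was 23.2 RPKM, against 4.94 RPKM for protein-coding genes with at least 10 reads, which is called the coding median from here on. Of the members, 8 lay above it, as did 33.9% of all protein-coding genes, and Atf3 and Egr2 lay below it. Among the 8, Fosb was not above it beyond counting error, at 5.05 RPKM (4.81 to 5.30). At 5 times the coding median or more lay 5 members, as did 8.45% of all protein-coding genes. That count depends on the length used. Jun and Jund stood at 5.10 and 5.53 times the median by the union of exons. By the transcript paired with each row's accession they stood at 3.31 and 3.59 times the median for that length. By the union of exons every member stood apart from its neighbour in the order beyond counting error, and the interval that came nearest to 1 was that of Jund over Jun. In a bulk library, fewer cells with a transcript and less of it per cell cannot be told apart.

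**Figure D1:**
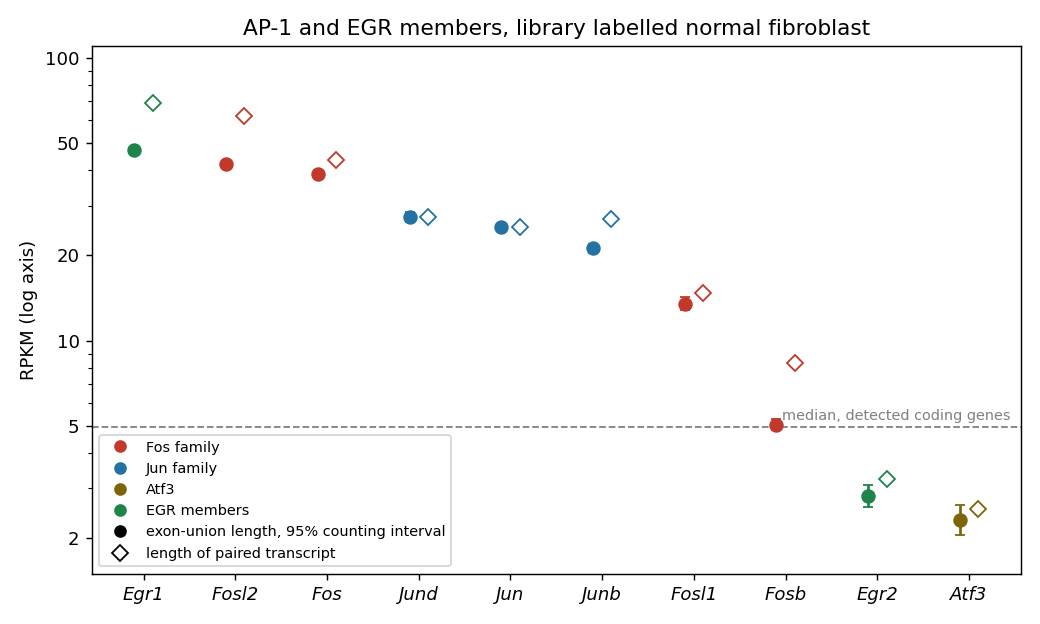
RPKM on a log axis for each member in the library labelled normal fibroblast. Filled points use the union of exons, with 95% counting intervals, and open diamonds use the length of the transcript paired with the row's accession. Egr1, Fosl2 and Fos were highest at 47.0, 42.0 and 38.9 RPKM, and Egr2 and Atf3 fell below the dashed median of 4.94 RPKM.

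Among the Fos family, Fosl2 and Fos were abundant and Fosb was not. Fosl2 encodes Fra-2, which lacks the strong activation domain of Fos (chromosome 5, 32136472 to 32157840; RefSeq spans in GRCm38). It had 21366 reads, or 407 CPM (reads per 1000000 reads; 402 to 413), the most reads of any member. Its level per length was 42.0 RPKM (41.5 to 42.6), at percentile 93.9 of protein-coding genes with at least 10 reads. Fos itself (chromosome 12, 85473890 to 85477274), the founding member and the classic serum-induced gene, had 4804 reads, or 91.5 CPM. Its transcript has 2108 bases, against 6537 in Fosl2, and per length it came close to Fosl2, at 38.9 RPKM (37.8 to 40.0). Fosl1, the gene of Fra-1 (chromosome 19, 5447698 to 5455938), had 1436 reads and 13.5 RPKM (12.8 to 14.2). Fosb (chromosome 7, 19302696 to 19310118), which like Fos encodes a strong activator, had 1654 reads and 5.05 RPKM (4.81 to 5.30), near the coding median. Fosl2 was thus 8.33-fold above Fosb in RPKM (7.92 to 8.76) and 3.12-fold above Fosl1 (2.96 to 3.30).

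Within the summed RPKM of the family, Fosl2 made up 42.3% (41.6% to 42.9%), Fos 39.1%, Fosl1 13.5% and Fosb 5.07%. This split depends on the length used. By the transcript paired with each row's accession Fosl2 held 48.4% and Fos 33.7%. By coding length, which leaves out the 4653 bases of untranslated sequence after the Fosl2 stop codon, Fosl2 held 74.2% and Fos 14.3%.

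The level of Fosl1 has a further limit. The gene overlaps Ccdc85b, on the opposite strand, and 60.1% of the 35-base stretches of the Fosl1 transcript also occur, as reverse complements, in transcripts of another gene. Ccdc85b had 1372 reads, close to the 1436 of Fosl1. The sources do not say whether the counting used strand, so reads of the overlapping stretch cannot be assigned with certainty.

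The Jun family was more even. Jund, which is expressed in many resting cells and is the least serum-responsive of the 3 (chromosome 8, 70697739 to 70700616), had 2390 reads, or 27.3 RPKM (26.2 to 28.4). Jun (chromosome 4, 95049036 to 95052222), the strongest activator of the family, had 4214 reads, or 25.2 RPKM (24.4 to 25.9). Junb (chromosome 8, 84976909 to 84978748), a weaker activator that can oppose Jun, had 2559 reads, or 21.2 RPKM (20.4 to 22.0). The highest was only 1.08-fold above the next in RPKM (1.03 to 1.14), and all 3 lay between percentiles 84.9 and 89.0. In their share of the summed RPKM, Jund had 37.1%, Jun 34.2% and Junb 28.8%.

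The order within the Jun family was not stable. By the paired transcript, Jund and Junb could not be told apart at 27.3 and 26.9 RPKM (ratio 1.01, 0.96 to 1.07), and Jun was lowest at 25.2 RPKM. Jund may also be longer than its GENCODE transcript of 1668 bases: over its RefSeq span of 2878 bases it had 15.8 RPKM (15.2 to 16.5), the lowest of the 3. For Junb the union of exons, 2301 bases, exceeds the RefSeq span of 1840 bases. Over that span Junb had 26.5 RPKM (25.5 to 27.5), the highest of the 3, and Jun had 25.2 RPKM over its own. Both Jund and Jun are overlapped by antisense transcripts, Gm11175 and Junos, that have no row of their own name in the table. As reverse complements, 49.7% of the 35-base stretches of Jund and 6.28% of those of Jun occur in transcripts of other genes. Junb overlaps Prdx2 by 351 bases of the genome, but none of its 35-base stretches occurred in an opposite-strand transcript.

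The summed RPKM of the Fos family was 99.5, against 73.7 for the Jun family, a ratio of 1.35 (1.32 to 1.39). The ratio was above 1 under each of the 5 length choices, and it was 1.62 by the paired transcript and 3.26 by coding length. It was 3.19 by reads alone, where Fosl2 held 73.0% of the reads of its family (72.5% to 73.5%).

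**Figure D2:**
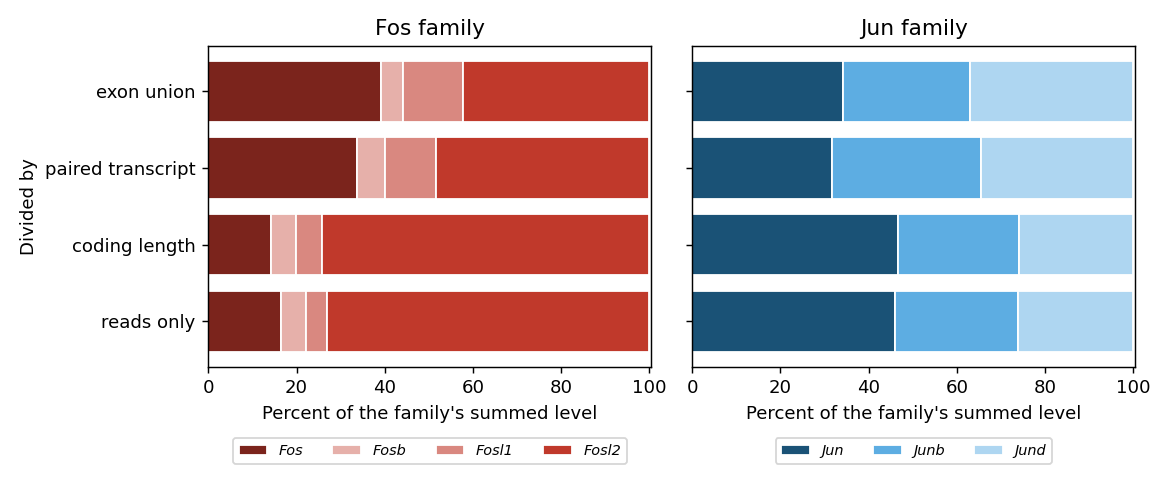
Share of the summed level of the Fos family (left) and the Jun family (right) held by each gene, in percent, with the level divided by the union of exons, the paired transcript, the coding length or nothing. Fosl2 grows from 42.3% by the union of exons to 74.2% by coding length, while the Jun family stays more evenly split.

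Atf3, a stress-induced leucine zipper factor of the ATF group that can pair with Jun (chromosome 1, 191170296 to 191183333), was the lowest member. It had 264 reads, or 2.33 RPKM (2.06 to 2.63), at percentile 34.7. Fos stood 16.7-fold above it in RPKM (14.7 to 18.9). Atf4, the translationally controlled stress factor that lies upstream of Atf3 in the integrated stress response, had 89.6 RPKM (88.0 to 91.3) and led the list of CREB and ATF relatives.

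The EGR members were split. Egr1 (chromosome 18, 34861207 to 34864956), the serum-induced zinc finger factor also known as Zif268, had 11057 reads, or 211 CPM (207 to 215). By the union of exons it was the highest member, at 47.0 RPKM (46.1 to 47.9) and percentile 94.9. Egr2, known for its role in myelinating Schwann cells (chromosome 10, 67534469 to 67542188), had 505 reads and 2.83 RPKM (2.59 to 3.09), below the median. Egr1 was 16.6-fold above Egr2 in RPKM (15.2 to 18.2) and made up 94.3% of their sum. That share stayed between 93.5% and 95.6% under every length tried.

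Egr1 and Fosl2 changed places with the length used. Egr1 was 1.12-fold above Fosl2 in RPKM by the union of exons (1.09 to 1.14) and 1.11-fold by the paired transcript, where it had 69.4 and Fosl2 62.3 RPKM. By the longest annotated transcript Fosl2 was ahead, at 62.3 against 47.0 RPKM. GENCODE gives Egr1 a long transcript of 4484 bases beside the paired one of 3036 bases. The long one exceeds the whole RefSeq span of the gene given above. The union of exons may therefore be too long for the reads counted, and the level by that length too low. Which of the transcripts these cells used cannot be read from a gene total.

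**Figure D3:**
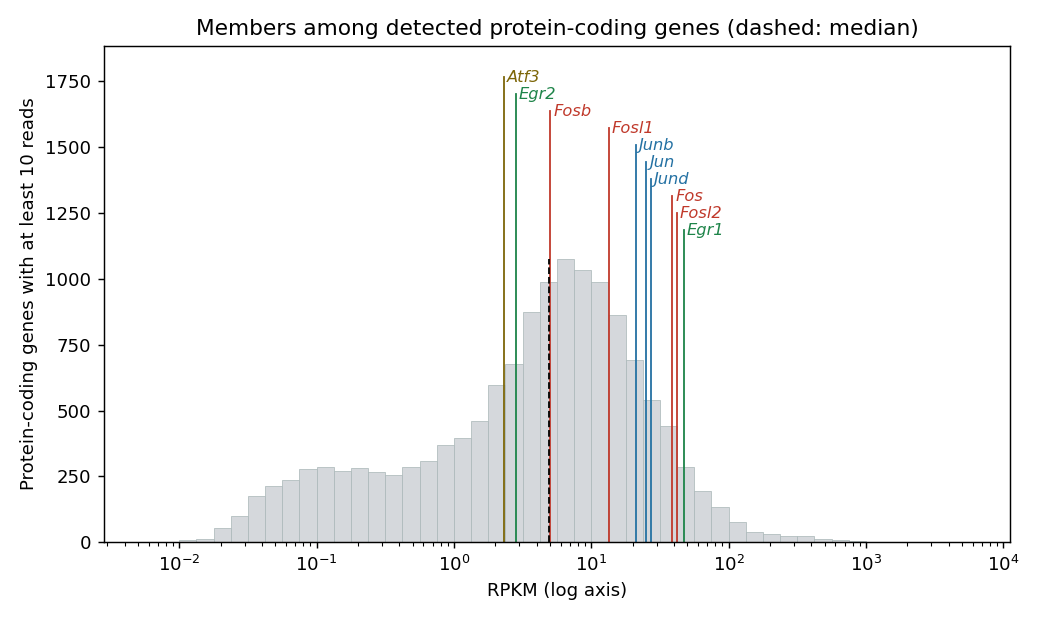
Number of protein-coding genes with at least 10 reads by RPKM (log axis, bars), with the level of each member as a coloured line and the median of 4.94 RPKM dashed. Egr1, Fosl2 and Fos stand in the upper tail, between percentiles 93.1 and 94.9, and Atf3 and Egr2 left of the median.

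The members share some features of gene structure and RNA that the choice of genes did not use. All 10 transcripts were richer in G and C than the median of 49.5% for coding transcripts, from 51.4% in Egr2 to 67.1% in Jund. Jun, Junb and Jund have a single exon, which holds for 10.2% of coding genes. All 10 carried the AU-rich pentamer ATTTA in the 3′ untranslated region, against 66.6% of coding genes with at least 100 bases there, and 9 had more of it per 1000 bases than the median of 1.26. Such pentamers are the core of the elements through which Fos RNA is known to be destabilised. Fos had 4.91 per 1000 bases, more than 92.3% of coding genes, Junb 4.12 and Jun 3.24, while Fosb had a single one in 2145 bases. To show the pentamers where they are densest, a 30-base stretch of the 3′ untranslated region follows for 4 members, with ATTTA in capitals (GRCm38, transcript strand).
Fos: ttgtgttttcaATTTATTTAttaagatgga
Fosl2: aattgacATTTAttttattATTTAttttaa
Jun: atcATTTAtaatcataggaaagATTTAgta
Fosb: cccacccccagctATTTAtccctttcctgg
The stretch of Fos holds 2 pentamers that overlap, those of Fosl2 and Jun hold 2 that stand apart, and that of Fosb holds its single copy. Fos has 4 pentamers in all, Fosl2 8 and Jun 4, and the spacing of the others is not shown. The densities did not follow the levels in either direction. Egr1 had 1.68 and Fosl2 1.72 per 1000 bases, less than the scarce Egr2 at 2.50 and Atf3 at 2.53. Fos, at 38.9 RPKM, had the highest density, and Fosb, at 5.05 RPKM, had the lowest at 0.466.

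Promoter sequence was searched for 8 members, from RefSeq in GRCm38.p6, as 250 bases before and 50 bases after each start site; Egr1 and Fosl1 were not searched. Egr2 had 5 such promoters and each of the other 7 genes had 1. The start sites used for Fosb and Egr2 lie inside the gene spans given above, by 73 bases in Fosb and by 1030 to 3461 bases in Egr2. The windows were read on both strands for the CArG box bound by SRF, the cyclic AMP element TGACGTCA, the AP-1 element TGACTCA, the EGR sites GCGTGGGCG and GCGGGGGCG, and TATAAA. The EGR site GCGGGGGCG was present in Fosl2 and Fosb, and in 2.91% of 32851 promoters. A CArG box was present in 4 of the 5 promoters of Egr2, but not in the one farthest upstream. The promoters with start sites at 67537869, 67537870 and 67537930 overlap and hold the same box. A CArG box occurred in 1.63% of all promoters and, counted by gene, in any promoter of 1.81% of 27025 genes. Boxes more than 250 bases upstream of a start site were outside the search. Fos and Junb held TATAAA, as did 13.6% of all promoters. It lies 33 to 28 bases upstream of the start site in Fos, but at the start site itself in Junb. None of the 8 genes searched held TGACGTCA (1.79%), TGACTCA (5.20%) or GCGTGGGCG (0.612%) in this window. Only these exact letters were counted, and variants of them, such as TGACATCA in the Jun promoter, were not. The 30 bases around matches upstream of a start site are shown with the match in capitals.
Fosl2, chr5:32136383-32136412, plus strand: ccggctgcgcGCGGGGGCGgaagggcgcgc
Fosb, chr7:19310076-19310105, minus strand: tgacgcaagcGCGGGGGCGggtcccggagg
Egr2, chr10:67537484-67537513, plus strand: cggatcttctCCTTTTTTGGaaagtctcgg
Egr2, chr10:67537787-67537816, plus strand: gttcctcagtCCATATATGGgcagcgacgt
Fos, chr12:85473845-85473874, plus strand: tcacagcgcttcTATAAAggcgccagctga
The EGR site lies 79 to 71 bases upstream of the start site in Fosl2, which had 42.0 RPKM. In Fosb, which had 5.05 RPKM, it lies 50 to 42 bases upstream of the start site used here and so within the RefSeq span of the gene. A match is a description of the letters and does not show binding.

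The genes around AP-1 and EGR were measured as 10 lists, chosen with earlier results of these data known. The background for each count above the coding median is the 33.9% of all protein-coding genes that lay above it. Of 29 other immediate early genes, 26 lay above the coding median, and the median of the list was 19.0 RPKM, or 3.86 times the coding median. Ctgf, a matricellular growth factor gene, led with 577 RPKM (573 to 581), before the prostaglandin synthase gene Ptgs2 at 168 and the matricellular gene Cyr61 at 130 RPKM. The nuclear receptor gene Nr4a3 was lowest at 0.547 RPKM. Their range was wider than that of the members, whose highest level was 20.2-fold their lowest.

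Most of the regulators measured lay above the coding median, as did 33.9% of all protein-coding genes. All 6 genes of SRF and its partners lay above the coding median, with a list median of 24.7 RPKM. Srf, the serum response factor, had 50.6 RPKM (49.5 to 51.8), the ternary complex factor Elk3 36.4, the coactivator Mkl1 28.7 and Elk1 5.47 RPKM. Of the 10 MAP kinases, 7 were above that median. The ERK gene Mapk3 had 66.4 RPKM and the p38 gene Mapk14 27.7 RPKM. Lowest of the 10 was the JNK gene Mapk10, with 23 reads, and the other JNK genes in the list were higher. Of 12 upstream and downstream kinases, 7 were above the median, led by the MSK2 gene Rps6ka4 (45.0 RPKM), Map2k1 (32.7 RPKM) and Map2k4 (18.9 RPKM), with Map2k6 at 0.459 RPKM.

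Partners and relatives ranged from levels like those of the members down to single reads. Of 13 other leucine zipper genes that can pair with AP-1 proteins, 5 lay above the coding median, a share near the 33.9% of all protein-coding genes. The median of the list was 1.76 RPKM. Jdp2, which encodes a repressor that binds Jun, had 24.2 RPKM (23.3 to 25.1), Maf 12.0 and Maff 10.1 RPKM, and Mafa had 1 read. The CREB and ATF relatives had a median of 16.4 RPKM, with Atf5 at 36.5 and Atf6b at 18.2 RPKM behind Atf4, and Crem lowest at 1.25 RPKM. The EGR corepressor genes Nab2 and Nab1 had 46.5 and 28.1 RPKM. Egr1 and Nab2 could not be told apart by the union of exons (ratio 1.01, 0.98 to 1.04), but Egr1 was 1.31-fold higher by the paired transcripts (1.27 to 1.35). Of the remaining EGR genes, Egr3 had 1.84 RPKM and Egr4 2 reads.

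Genes that AP-1 or EGR1 are known to activate in other settings did not share a level. Of 13 AP-1 targets, 8 lay above the coding median: the protease inhibitor gene Timp1 had 455 RPKM (449 to 461), the cyclin gene Ccnd1 76.4 and the heme oxygenase gene Hmox1 71.6 RPKM. The matrix metalloproteinase gene Mmp9 was lowest, with 10 reads. Of 6 EGR1 targets, 3 were above the median. Nab2, which is also in the corepressor list, had 46.5 RPKM and Pdgfa 7.12 RPKM, while Pdgfb had 0.586 RPKM. These values are levels and do not show that a member controls a gene.

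**Figure D4:**
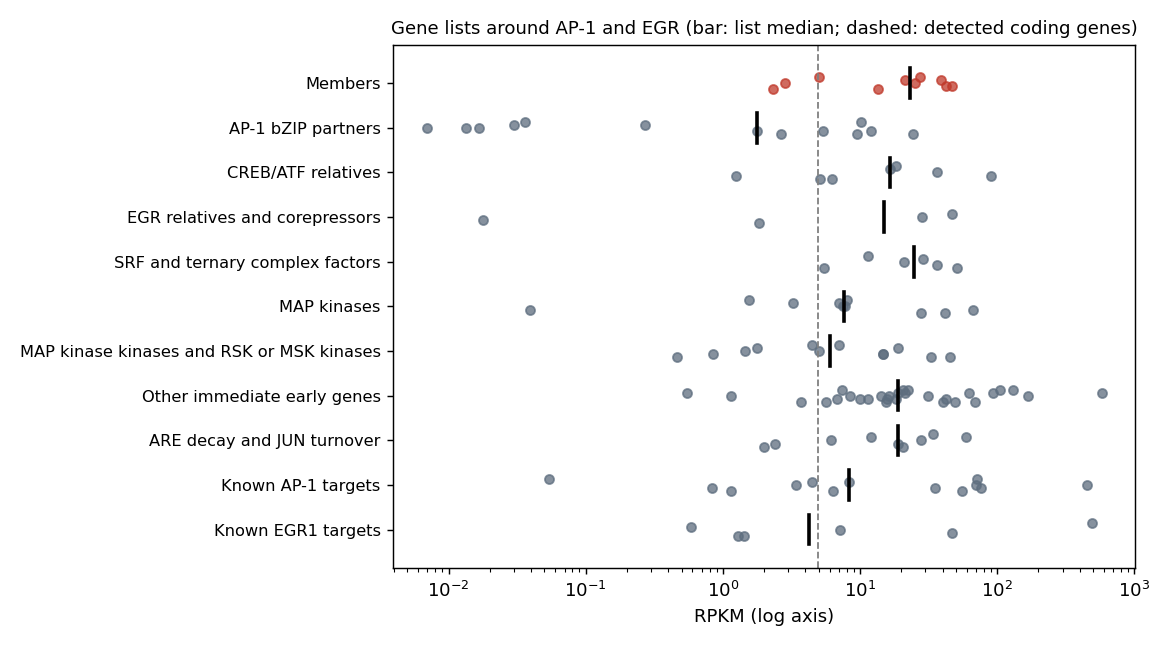
RPKM (log axis) of the members, in red, and of the genes of each of 10 lists, in grey, with the median of each list as a black bar. The dashed line is the coding median, 4.94 RPKM. The list of other immediate early genes reaches 577 RPKM in Ctgf, and the leucine zipper partners reach down to single reads.

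The labelled cell type was checked against markers, beside the 33.9% of all protein-coding genes that lay above the coding median. Of 10 fibroblast markers 8 lay above the coding median, with a median of 148 RPKM; Lum (2.16 RPKM) and Fap (29 reads) did not. All 5 mesothelial markers lay above it, with a median of 41.0 RPKM, and so did 6 of 8 acinar markers, with a median of 21.3 RPKM. Msln, which defines mesothelium, had 29.6 RPKM. Of the acinar enzyme genes, Ctrb1 had 58.5, Cela2a 31.3 and Pnlip 31.2 RPKM, but Amy2a5 had 0.369 RPKM. The acinar transcription factor gene Ptf1a had 6 reads. Of 6 endothelial markers, the VEGF receptor genes Kdr (20.1 RPKM) and Flt1 (7.55 RPKM) lay above the coding median, whereas Pecam1 had 13 reads and Cdh5 17. Above that median were also 2 of 7 ductal markers, 1 of 6 macrophage markers and none of 4 lymphocyte markers. The macrophage marker above it was Lyz2 (6.99 RPKM), and Cd14 had 372 reads, Csf1r 268 and Cd68 235. Lowest of that list were Adgre1 with 37 reads and Ptprc, common to all leukocytes, with 26. The T cell gene Cd3e had 3 reads. No marker was at 0 reads. The part of other cells in the members' levels was not tested.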

How the data were processed

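One library of 1 sample was analysed, and 1 value column. The authors' deposited signal is, from its values, reads per gene divided by 1 size factor of 0.85: 99.99% of the values above 0 were whole multiples of 1.176 (1 read) within 0.006. The 52494688 whole reads recovered from them were used. The submitters' processing notes name DESeq and mm10 without a role. No source used here names the aligner, counting tool, strand setting or filters.

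CPM and RPKM were computed here from the recovered reads. Exons of GENCODE M21 were merged per gene to give lengths (GRCm38, which mm10 denotes), which was possible for 99.6% of 20559 protein-coding genes. Reads have exact Poisson intervals and ratios exact binomial ones; intervals of shares of summed RPKM and of their ratio use the delta method. Reads are not independent molecules, so intervals cover counting error only. No count test was run, since 1 library has no replicate. On simulated libraries of 23386 genes, the reads of 100% of genes were recovered. For the 14935 genes with at least 10 expected reads, 95.4% of Poisson intervals held the true value. The simulated counts were themselves drawn as Poisson, so this coverage checks the calculation and not the real library.

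Members and lists were chosen with earlier results of these data known. The text names all members and, of each list, the 3 highest genes and the lowest, except a few genes that are not reported here by name. Ratios between chosen genes, the genes that overlap members, Zfp36 and the few marker genes named singly were picked after their values were seen. Alternatives were other lengths, totals, read minimums and backgrounds. Software was scipy 1.17.1 and numpy 2.4.6 for statistics, pandas 2.3.3 for tables and matplotlib 3.10.9 for plots, under Python 3.11.15.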

Additional observations from a re-analysis of the deposited data

How the results depend on the processing

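No paired analysis was possible because there is 1 sample, and no replicate could be left out. All 10 members were detected at minimums of 1, 10 and 50 reads, and 67.8% of protein-coding genes were at the minimum of 10. The number above the median of detected genes stayed at 8 under every length and with noncoding genes in the background. It was 10 and 7 with detection at 1 and 50 reads, settings that also move the median. Of all protein-coding genes, 33.9% lay above it at 10 reads by the union of exons. Shares under the other settings are not given, so these counts describe the members only. Of 45 pairs of members, 41 to 44 kept their order under the other lengths. The pairs that turned round were Egr1 over Fosl2 (0.52 by reads, 0.75 by the longest transcript, 0.32 by coding length), Jund over Jun (0.57 and 0.56 by reads and coding length), Jund over Junb (45.5 against 48.7 CPM by reads, 44.5 against 47.2 RPKM by coding length), Jun over Junb (0.93 by the longest and by the paired transcript), Fosl1 over Fosb (0.87 by reads) and Egr2 over Atf3 (0.74 by coding length). By reads, longest transcript, coding length and paired transcript, in that order, the Fos family over the Jun family was 3.19, 1.62, 3.26 and 1.62. In the same order the share of Fosl2 was 73.0%, 48.4%, 74.2% and 48.4%, of Jun 46.0%, 31.7%, 46.6% and 31.7%, and of Egr1 95.6%, 93.5%, 95.1% and 95.5%. These moves follow from the lengths themselves. Levels rose by 0.42 log2 units for all genes alike when the total was taken without the 100 most abundant genes, and by 0.12 with a total of coding genes. The paired transcript and the RefSeq span were chosen after seeing the data. A comparison of gene features with RefSeq exons was not run, because the RefSeq table used here holds gene spans only.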

Other observations

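Genes that act on the members' RNA or protein were also measured. Of 9 genes of AU-rich RNA decay and Jun turnover, 7 stood above 4.94 RPKM, the median of coding genes with at least 10 reads. Of all protein-coding genes, 33.9% did. The list had a median of 19.0 RPKM. Zfp36l2, which encodes a protein that binds AU-rich elements and recruits the decay machinery, had 59.0 RPKM (57.9 to 60.1), the RNA-binding gene Khsrp 34.3 and Zfp36l1 27.8 RPKM. The lowest was Rfwd2, the gene of the ubiquitin ligase COP1, at 1.99 RPKM (1.90 to 2.09). Zfp36, itself an immediate early gene and counted in both lists, had 19.0 RPKM.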
